A study of Mus musculus with 2 samples.

Results

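The Peg3 imprinted domain of proximal chromosome 7 was examined in the H3K9me3 peak list of mouse intestinal stem cells, through its genes Peg3, Usp29 and Zim1. Members were 3 of 49603 annotated genes, and a peak was counted for a gene when any base of it lay in the GRCm38 (mm10) span of the gene or in the 5 kb on either side. By this rule 7 of 40119 deposited peaks belonged to the domain genes. The H3K9me3 ChIP library came from GFP-high, CD24-low cells sorted from 12 pooled Lgr5-EGFP-IRES-creERT2;setdb1fl/fl mice of the C57BL/6 strain at 8 weeks of age, and the control library came from cells described by the same genotype, strain, age and pooling. Lgr5 drives both the reporter and the inducible Cre in crypt stem cells, the Setdb1 gene carries loxP sites for its deletion, and no label says whether the Cre had been induced. The control is titled input while its antibody entry reads IgG. Each group is 1 library, so no test between groups was made, and the control is seen only through its tags inside the called peaks. A silencing mark does not measure expression, so the sorted cell type could not be checked against marker genes.

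Genomic imprinting is expression from 1 parental allele alone, and it is set by control regions that carry DNA methylation from 1 parent. In the mouse Peg3 domain that region covers the shared start of Peg3 and Usp29 and is methylated on the maternal allele. Peg3, which encodes a large zinc finger protein, and Usp29, which encodes a member of the ubiquitin-specific protease family, are transcribed from the paternal allele, and Zim1, another zinc finger gene, from the maternal one. H3K9me3 is a mark of silent chromatin, and at imprinting control regions it is known to lie on the methylated allele, where the zinc finger protein ZFP57 brings in TRIM28 and the methyltransferase SETDB1. The peak list gives no allele, so a peak here is the sum of both alleles.

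The promoter windows of the domain are shown because the tallest peak lies over the start that Peg3 and Usp29 share, while Zim1, with no peak, has a start of its own. Each window runs from 250 bases before to 50 bases after the start of a gene and comes from RefSeq on GRCm38.p6, and all 3 members and the neighbouring non-coding gene Zim2 matched an entry. Capitals mark CpG, the pair of bases that carries DNA methylation. The Peg3 window lies at chr7:6730370-6730669 on the minus strand, that of Usp29 at chr7:6730333-6730632 on the plus strand, that of Zim1 at chr7:6696383-6696682 on the minus strand and that of Zim2 at chr7:6662319-6662618 on the minus strand.
Peg3: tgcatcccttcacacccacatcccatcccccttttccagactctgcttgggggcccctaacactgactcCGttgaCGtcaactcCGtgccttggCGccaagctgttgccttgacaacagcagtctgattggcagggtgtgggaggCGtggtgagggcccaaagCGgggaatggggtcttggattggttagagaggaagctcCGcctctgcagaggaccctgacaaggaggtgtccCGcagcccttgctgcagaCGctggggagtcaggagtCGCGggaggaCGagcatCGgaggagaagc
Usp29: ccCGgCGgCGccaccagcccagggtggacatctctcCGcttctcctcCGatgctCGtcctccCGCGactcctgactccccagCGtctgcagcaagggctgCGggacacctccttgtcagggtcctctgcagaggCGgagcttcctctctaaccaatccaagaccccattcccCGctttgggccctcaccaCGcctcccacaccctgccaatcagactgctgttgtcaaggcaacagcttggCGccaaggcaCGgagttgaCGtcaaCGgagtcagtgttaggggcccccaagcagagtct
Zim1: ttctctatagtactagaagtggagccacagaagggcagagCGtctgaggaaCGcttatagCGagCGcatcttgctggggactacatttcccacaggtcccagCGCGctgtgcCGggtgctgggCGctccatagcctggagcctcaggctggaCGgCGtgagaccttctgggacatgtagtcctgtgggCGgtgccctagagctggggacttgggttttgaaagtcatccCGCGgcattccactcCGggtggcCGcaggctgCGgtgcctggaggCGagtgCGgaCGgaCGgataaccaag
Zim2: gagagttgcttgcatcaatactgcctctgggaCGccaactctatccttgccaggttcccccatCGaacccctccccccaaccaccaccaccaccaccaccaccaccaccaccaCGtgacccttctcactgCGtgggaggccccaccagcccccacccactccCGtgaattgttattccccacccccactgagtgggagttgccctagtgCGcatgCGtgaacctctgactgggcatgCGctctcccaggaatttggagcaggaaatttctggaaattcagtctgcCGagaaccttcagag

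The windows of Peg3 and Usp29 share 263 of their 300 bases, read from opposite strands, because the starts of these divergent genes are 164 bp apart. The Peg3 window held 13 CpG and the Usp29 window 17, against a median of 7 over all 32851 windows of the table. The Zim1 window held 20 CpG, and the Zim2 window held 9. GC content was 61.3% for Peg3, 63.7% for Usp29, 61.7% for Zim1 and 59.0% for Zim2, with a median of 52.7% over all windows. A search on both strands for TGCCGC, the hexamer that ZFP57 binds, found no match in the Peg3 or Usp29 window and 1 in the Zim1 window, on the strand opposite to the one printed, and 11.6% of all windows held it. The letters GCCAT, the core read by YY1, a zinc finger factor known to bind the Peg3 control region, were in neither strand of any of the 4 windows, while 40.5% of all windows held them. Such a match is a description of letters in 300 bases, and the rest of the control region was not searched because no genome sequence was used.

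Peg3 had 5 peaks and Usp29 had 4, while Zim1 had none. A peak was counted at 55.6% of all 21779 protein-coding genes by the same rule, so the presence of a peak at 2 of the 3 members is near the background. At least 5 peaks were counted at 4.57% of protein-coding genes and at least 4 peaks at 8.07%. These shares do not take gene length into account, which was 26571 bp for Peg3, 236662 bp for Usp29 and 22097 bp for Zim1. Peaks covered 19.4% of the Peg3 span, against 1.23% of the Usp29 span and none of the Zim1 span.

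Peg3 and Usp29 shared 2 of the 7 peaks, the tallest among them. Its width of 3651 bp, from 6727265 to 6730916, took in the starts of both genes and both promoter windows printed above. The ChIP library held 135.5 tags in it (exact Poisson 95% interval 114 to 160), which the authors scaled to a normalized tag count of 142.0, and the control library held 5.5 tags (1.91 to 12.4). With the ChIP tags brought to the size of the control library, which had 0.684 times as many tags, ChIP over control was 16.9 (conditional 95% interval 7.31 to 49.4). The ratio compares these 2 libraries, and its interval covers counting error alone.

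The shared peak lay mainly on the Peg3 side of the start. It ran 3154 bp from the Peg3 start site into that gene, and it ended 497 bp beyond the Peg3 start and 333 bp beyond the Usp29 start, on the Usp29 side. A peak touched 13.1% of all promoter windows, and one at least as tall as this touched 54 of 32851, or 0.164%. Those 54 windows belonged to 51 genes, of which Peg3 and Usp29 were 2. By gene rather than window, 0.739% of protein-coding genes had a peak of this height within 5 kb.

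**Figure D1:**
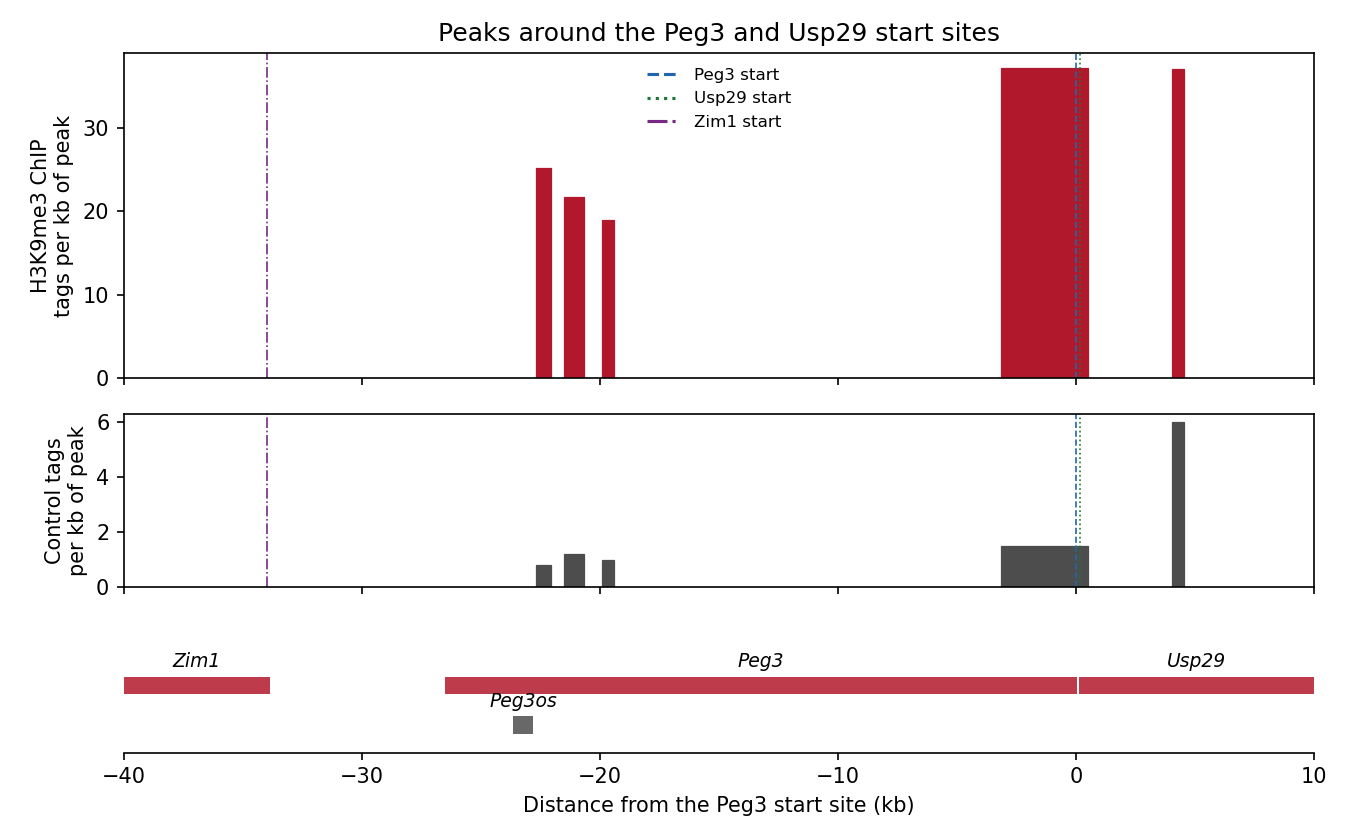
ChIP tags per kb of peak (upper panel, red) and control tags per kb of peak (middle panel, grey) against distance in kb from the Peg3 start site, with gene spans below and vertical lines at the start sites of Zim1, Peg3 and Usp29. Each bar is a deposited peak drawn at its width. The broad peak over the joint start held 37.1 ChIP tags per kb and the 500 bp peak inside Usp29 held 37. No bar stands at the Zim1 start.

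The other peak that Peg3 and Usp29 shared was short and rested on the highest control density of the 7. It lay 3.87 kb inside Usp29 (6734450 to 6734950, 500 bp), on the far side of the start as seen from Peg3, and it was counted for Peg3 through the 5 kb window only. It held 18.5 ChIP tags (11.1 to 29.1) and 3 control tags (0.619 to 8.77). ChIP over control was 4.22 (1.24 to 22.3), close to the lowest value of 4 in the whole list. The authors' score, which the caller gives to each peak, was highest here at 17.5, against 14.5 for the broad peak and 10 to 14.5 for the other 5. Control tags stood at 6 per kb in this peak and at 0.787 to 3 per kb in the other 6.

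A group of 3 short peaks lay near the far end of Peg3, between 6707723 and 6711016. They began 3.83 kb from that end and were separated from the broad peak by 16.2 kb with no peak. They held 16, 18 and 9.5 ChIP tags, in their order along the chromosome, with 0.5, 1 and 0.5 control tags, where 0.5 is the lowest control value that the list gives. The last of them, 500 bp wide, was near the lowest ChIP count of any peak in the list, 9 tags. ChIP over control was 21.9, 12.3 and 13.0 with lower bounds of 2.05, 1.94 and 1.11, and the upper bounds are not given because they rest on at most 1 control tag. The ratios of 21.9 and 13.0 and their bounds were computed at the lowest control value, at which 43.0% of all peaks stood. All 3 also lay within 5 kb of Peg3os, a non-coding RNA gene antisense to Peg3, and the peak list does not separate strands.

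Usp29 had its remaining 2 peaks at the opposite end of the gene. The peak at 6947762 to 6948803 held 25.5 ChIP tags (16.6 to 37.5) and 1.5 control tags, and that at 6951951 to 6952950 held 28 ChIP tags (18.6 to 40.5) and 3 control tags. ChIP over control was 11.6 (2.47 to 169) in the first and 6.39 (1.97 to 32.8) in the second. The second also lay within 5 kb of Zim3, annotated as a long non-coding RNA gene in the table used, whose span overlaps the end of Usp29. Between these peaks and the short peak 3.87 kb inside Usp29 no peak was called over 212.8 kb, which is 89.9% of the gene. Of the 39951 gaps between neighbouring peaks, 93.2% were shorter than this, and on chromosome 7 95.7% were. The microRNA gene Mir3099, which lies inside Usp29, falls in this stretch without a peak.

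**Figure D2:**
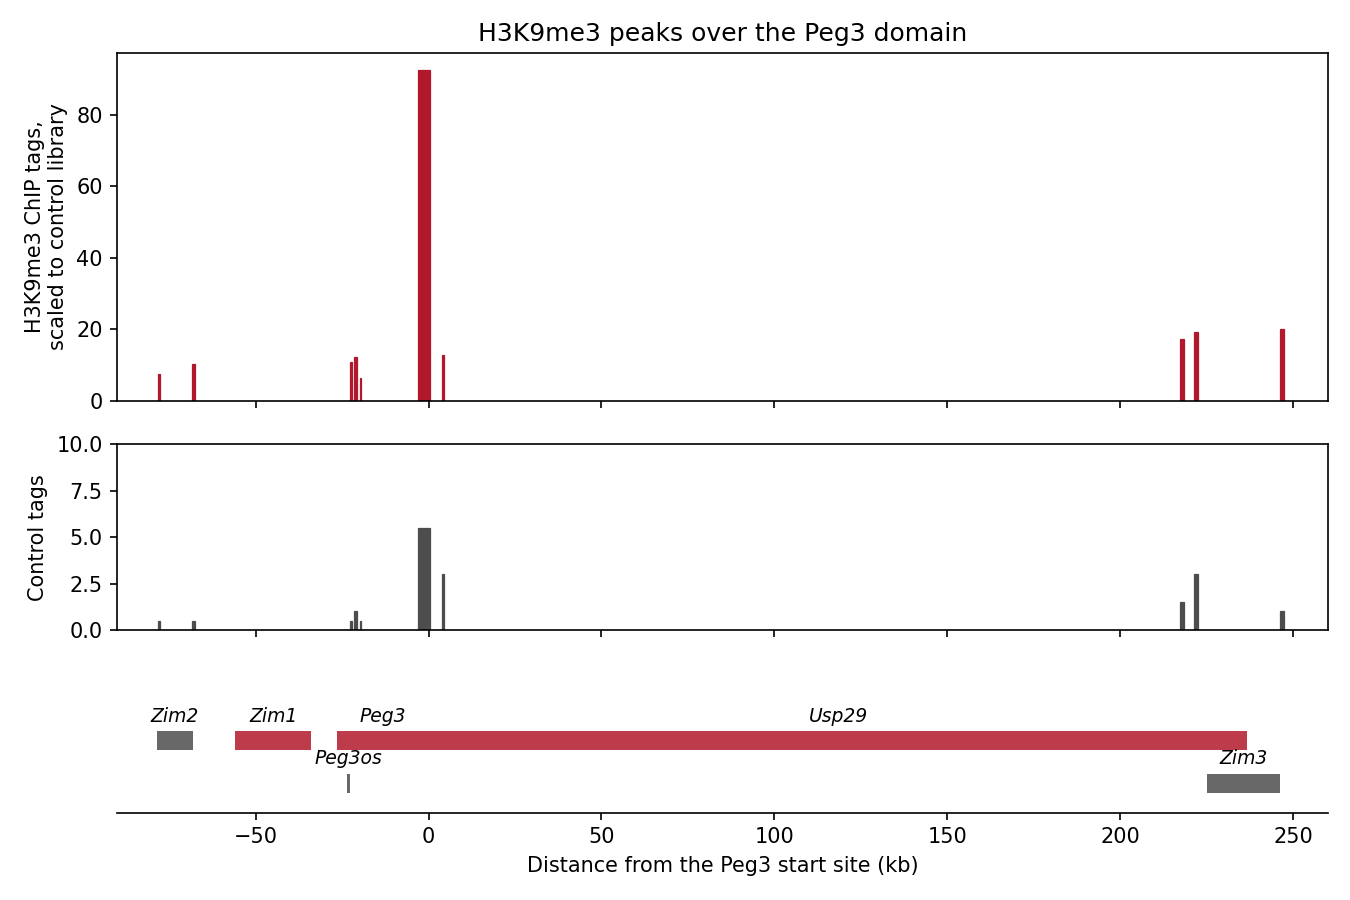
ChIP tags scaled to the size of the control library (upper panel, red) and control tags (middle panel, grey, on its own scale) in each deposited peak, against distance in kb from the Peg3 start site, with gene spans below (members in red, neighbours in grey). The broad peak at the joint start of Peg3 and Usp29 stands at 92.7 scaled ChIP tags, the body of Usp29 is empty for 212.8 kb, and Zim1 has no peak.

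Zim1 was free of called peaks over its span and for more than 10 kb on each side. The nearest peak before the gene ended 11650 bp from it, at Zim2, and the nearest after it began 11183 bp away, inside Peg3. The gap over Zim1 was 44.9 kb, and 60.8% of gaps between neighbouring peaks were shorter, so a stretch of this length without a peak is common in the list. No tags are given outside peaks, so the ChIP level at Zim1 is known only as not called, and the lowest called peak held 9 tags. The start site of Zim1 was 30.8 kb from the broad peak.

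Over the 7 peaks the ChIP library held 251 tags (221 to 284) and the control library 15 (8.40 to 24.7). ChIP over control for these sums was 11.4 (6.81 to 20.8). The broad peak held 54.0% of the ChIP tags and 36.7% of the control tags of the 7. It had 4.84 times the tags of the next tallest, and the other 6 held 9.5 to 28 tags at widths of 500 to 1041 bp. These tags are totals over the width of a peak. Per kb the broad peak held 37.1 ChIP tags and the 500 bp peak inside Usp29 held 37, so these were alike in density. The rest held 19 to 28.0 per kb. The median of the 7 was 18.5 tags with a width of 828 bp, against 16.5 tags and 769 bp for all peaks, so apart from the broad peak the domain held peaks of the size that fills the list.

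**Figure D3:**
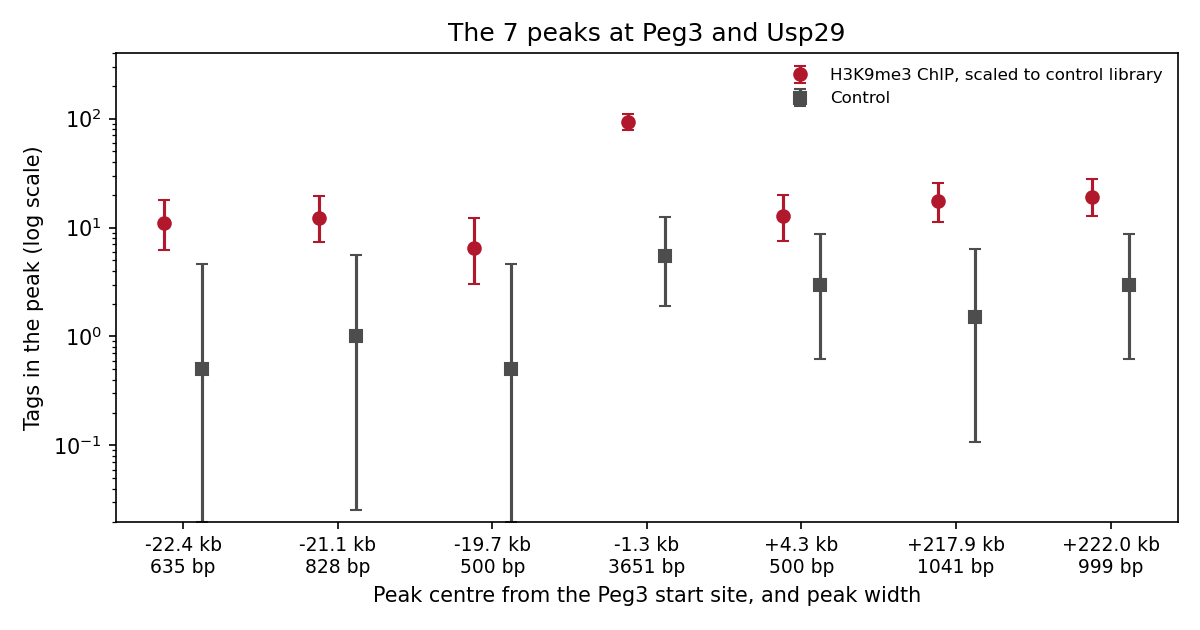
Tags (log scale) in each of the 7 peaks at Peg3 and Usp29, ordered along the chromosome, for H3K9me3 ChIP scaled to the control library (red circles) and for control (grey squares), with exact Poisson 95% intervals. The peak at -1.3 kb stands above the others, and at the peaks at -19.7 and +4.3 kb the ChIP and control intervals overlap. The control intervals of the 2 peaks with 0.5 control tag run below the axis.

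By normalized tag count 400 of 40119 peaks were taller than the broad peak, and 99.0% were lower. By width 306 peaks were broader. Its place was lower by density, with 92.8% of peaks holding fewer tags per kb, and lower still by the authors' fold over control, with 76.1% of peaks below it. Among the 472 peaks at least 3000 bp wide it was near the middle, since 45.1% of them held fewer normalized tags and their median was 151.9. Its 5.5 control tags stood beside a median of 7.5 in these broad peaks, and its deposited fold lay above 73.1% of theirs. The choice of the broad peaks as a class was made after the values were seen.

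**Figure D4:**
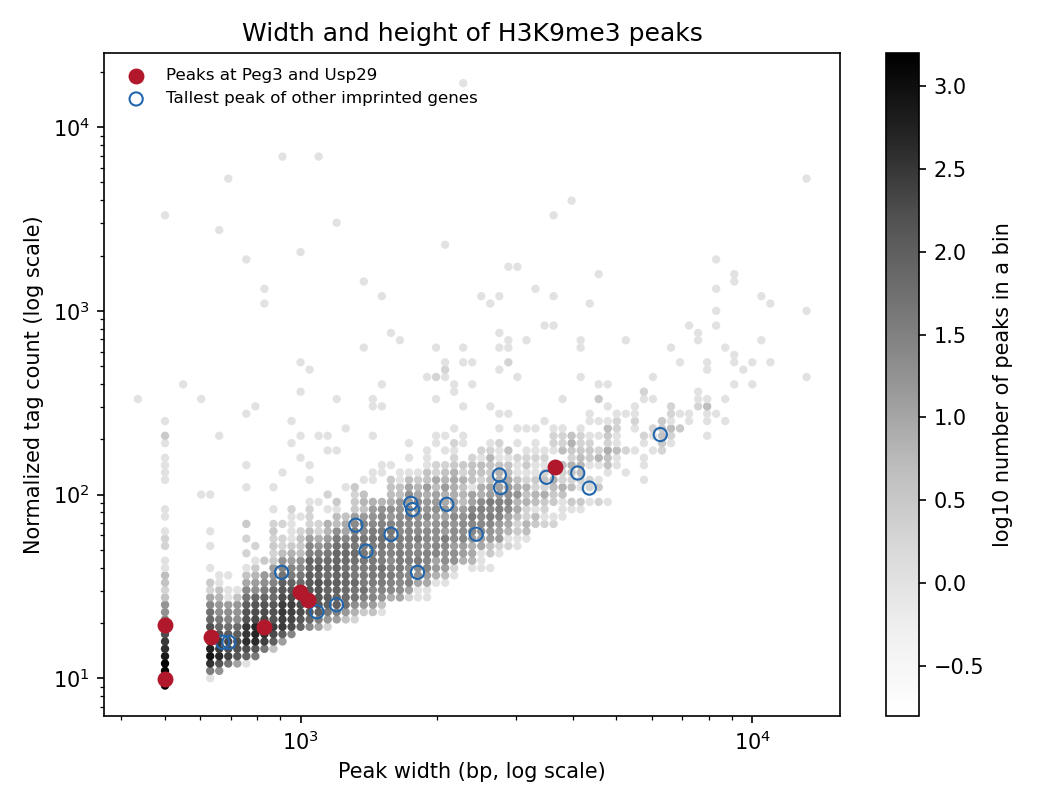
Normalized tag count against peak width in bp, both on log scales, with all deposited peaks as grey bins shaded by the log10 number of peaks, the 7 peaks at Peg3 and Usp29 as red points and the tallest peak of other imprinted genes as blue rings. The broad peak at 3651 bp and 142.0 normalized tags lies at the upper end with rings of other imprinted genes near it, and the other 6 red points lie among the bulk of the list.

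Likeness to the broad peak was measured by the sum of the absolute log2 differences in normalized tag count and width, over 1 library. The 5 nearest peaks of the whole list lay on chromosomes X, 17, 5, 7 and 2, had 139.3 to 146.1 normalized tags and 5 to 6.5 control tags, and 4 of them had no annotated gene within 5 kb. The exception, on X, lay near Gm2318. The 5 nearest imprinted genes were Peg10, Nnat, Impact, Meg3 and Mest. Peg10, a gene derived from a retrotransposon, came closest with 124.1 normalized tags over 3503 bp and 9 control tags. Nnat, which encodes a small membrane protein of neurons, had 131.0 normalized tags over 4107 bp and 8 control tags.

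Other imprinted genes were set beside the domain through genes with a control region methylated in the germline. All 17 genes with maternal methylation and 3 of 4 with paternal methylation had a peak, beside 40% of all 49603 genes and 55.6% of protein-coding genes, to which 13 of the 17 belong. Gene length was not taken into account in these shares, and the lists hold long genes such as Snrpn, with 8 peaks. The tallest peak of Peg3, at 142.0 normalized tags, was exceeded by 1 of the 19 distinct tallest peaks of these genes, that of Gnas and Nespas with 212.1 normalized tags over 6256 bp. The median tallest peak was 75.5 normalized tags for the maternal list, over 16 distinct peaks, and 20.4 over all genes with a peak. At least 100 normalized tags were reached by 5 of those 16 distinct peaks, among them the peak shared by Gnas and Nespas. Counted by gene instead, 1.30% of all genes, with or without a peak, had such a peak. The paternal list had a median of 25.1 over 3 peaks, with Meg3, a long non-coding RNA, at 108.4.

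The control tags of these tall peaks were above the list median of 1 as well. They are totals over the peak, and these peaks were wider than the list median of 769 bp. Per kb the broad peak at Peg3 held 1.51 control tags. Peg3 had 5.5 control tags, Gnas and Nespas had 13, Impact had 10.5 and Mest had 5. ChIP over control followed another order than height, since 5 of the 19 peaks had a higher deposited fold than that of Peg3, and Plagl1, with 47 ChIP tags and 1 control tag, was among them. Within the maternal list the tallest peaks of Igf2r (23.0 normalized tags) and Mcts2 (15.7) were of ordinary height. So were those at H19 (25.1) and Rasgrf1 (15.7) of the paternal list. The Igf2r and Rasgrf1 peaks lay inside the gene spans and the H19 peak outside. Their distance from the control regions was not measured, so it is not known here whether these heights are those of the control regions. Zdbf2 was the gene of the 2 lists with no peak.

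**Figure D5:**
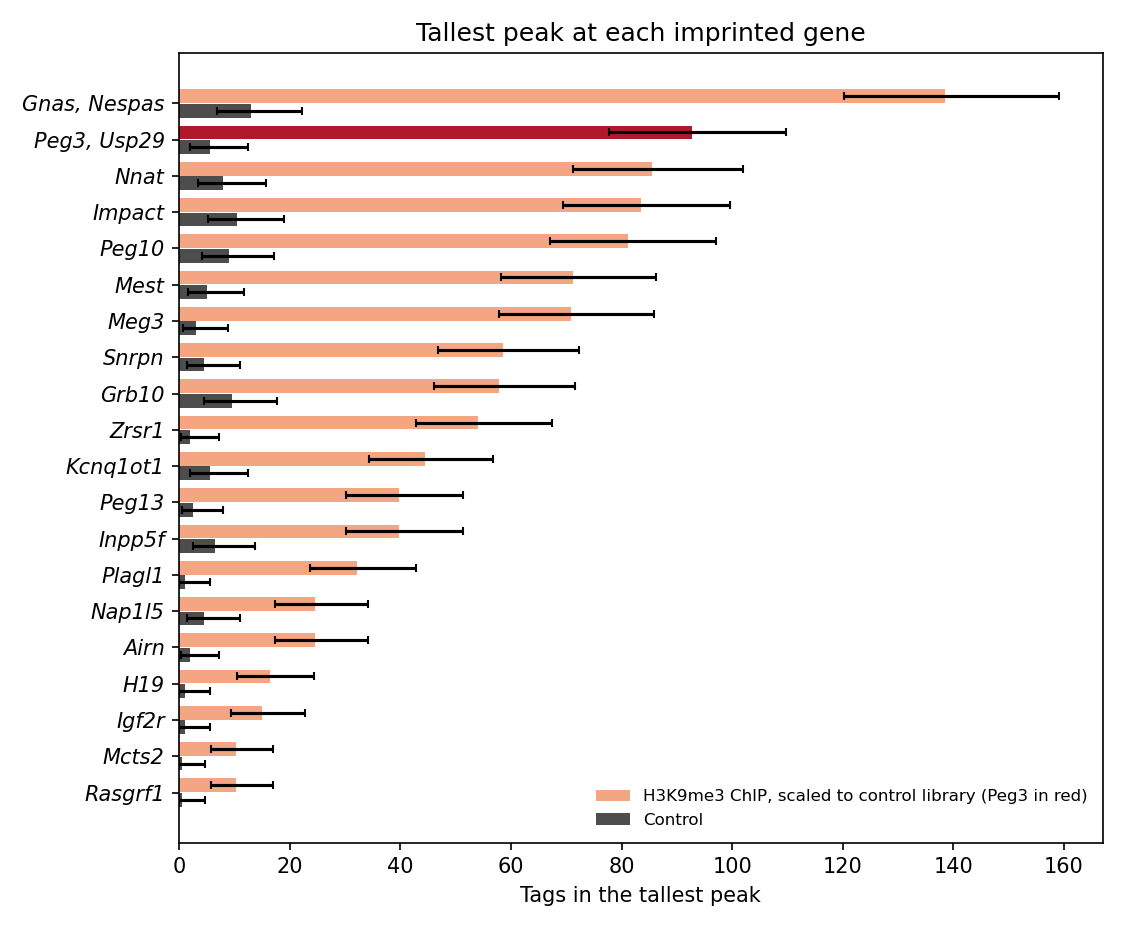
Tags in the tallest peak of each imprinted gene with a peak, as H3K9me3 ChIP scaled to the control library (red for Peg3 and Usp29, orange for the others) above control (grey), with exact Poisson 95% intervals. The bar of Peg3 and Usp29 is below that of Gnas and Nespas, and its interval overlaps those of Nnat, Impact, Peg10, Mest and Meg3.

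The rest of the Peg3 domain carried short peaks. Zim2 had 2, of 11 and 15 ChIP tags with 0.5 control tag in each, and the taller of them lay over its promoter window. Zim3 had 2, the one it shared with Usp29 and one of 29.5 ChIP tags beside 1 control tag that began 88 bp past its end. Zfp264 was not found in the table used. Counted over the domain and the 500 kb on either side of it, 21 of 46 genes besides the members had a peak, beside 40% of all genes, and so did 11 of 27 protein-coding ones, beside 55.6% of all protein-coding genes. These included 5 of 10 zinc finger genes taken by a Zfp or Zscan symbol, with Zfp78 tallest at 41.9 normalized tags, 2 of 8 olfactory receptor genes and 1 of 4 vomeronasal receptor genes, all of them protein-coding and set beside the same 55.6%.

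Within these flanks the broad peak was number 3 in height of 46 peaks. The taller ones were a peak of 172.9 normalized tags and 7.5 control tags at 7074083 to 7078652, with no annotated gene within 5 kb, and a peak of 332.6 normalized tags and 36.5 control tags at 7277238 to 7278693, shared by Vmn2r29 and Clcn4. The 292.8 kb from the outer end of Zim1 to that of Usp29 held 7 peaks, or 23.9 per Mb, beside 35.6 per Mb with the flanks included and 19.2 per Mb on chromosome 7 as a whole.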

How the data were processed

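The analysed file is the peak list of the ChIP library. HOMER 4.10.1 and Bowtie2 2.2.8, with builds GRCm38 and mm10, are named in the submitters' processing notes, and the caller's options are not known here. ChIP tags are deposited as a normalized signal, scaled to an unstated library total, and the deposited control tags are a signal too. Per the file headers, each peak also has a fold (a ratio) over control, a p-value and the authors' score. The fold was recomputed from tags and used as deposited for ranks, and the p-value was not used. No deposited fold was under 4, so ratios in called peaks are high by construction.

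ChIP tags were recovered as whole steps of 0.524 normalized tags, the worth of 0.5 tag, and 99.998% of values under 1000 fell within 0.1 of a step. If scaling was to 10 M tags, the libraries held 9.55 M and 6.53 M. The median peak held 16.5 ChIP tags and 1 control tag. Intervals, at 95%, are exact Poisson for tags and conditional binomial for ratios, and cover counting error alone. Gene spans came from RefSeq (GRCm38.p6), without exons. Left out were 340 genes placed before 3 Mb, with scaffold coordinates, and genes off chromosomes 1 to 19, X and Y.

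Members and lists were chosen with earlier results of these data known. Named were the members, domain genes, genes within 500 kb, genes with germline methylated control regions, genes that keep imprints, and the 5 nearest genes and peaks in height and width. Examples among these were picked after their values were seen. Alternatives were other windows and overlap rules, a fold of at least 8, the upper part by score, merged peaks, other rankings and 1 strand for motifs. Counting and intervals were tested on simulated data. Python 3.11.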

Additional observations from a re-analysis of the deposited data

How the results depend on the processing

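Each group is 1 library, so leaving out a replicate could not be tried. No paired analysis was possible because the labels give no replicate pairs and no result comes from a test. Of 50 alternative values, 39 stayed close to the value reported, and 11 moved. Close was taken loosely for small counts. It took in 6 peaks in place of 4 at Usp29 with 20 kb on either side. It also took in 5 in place of 7 over the members among peaks of at least 8-fold. With 20 kb on either side, Zim1 counted 4 peaks in place of 0, all of them at Zim2 or Peg3. Among peaks of at least 8-fold, Usp29 counted 2 in place of 4. With peaks within 5 kb merged, Peg3 and Usp29 counted 2 each and the members 3 in all. The highest peak by score at Peg3 and Usp29 held 18.5 tags in place of 135.5. The share of peaks below the broad peak was 99.0% by height, 92.8% by tags per kb, 79.9% by score and 76.1% by fold. The match to TGCCGC in the Zim1 window was 0 on the printed strand alone and 1 on both. Depth limits the short peaks most, since 9.5 to 28 tags and at most 3 control tags lie behind each.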

Other observations

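Among genes that keep imprints or write H3K9me3, 8 of 12 had a peak within 5 kb, beside 55.6% of protein-coding genes. Daxx, which encodes a histone chaperone, had the tallest, with 135.7 normalized tags over 4209 bp and 9.5 control tags, close in height to the broad peak at Peg3. This peak lay outside the Daxx span and off its promoter windows, and was counted through the 5 kb window alone. Ehmt2, an H3K9 methyltransferase gene, had 5 peaks, and the highest held 69.7 normalized tags and 7.5 control tags and also lay outside the gene span, and Uhrf1, whose product guides maintenance methylation, had a tallest peak of 37.2. No peak was counted at Zfp57, Setdb1, Yy1 or Suv39h2, and of the 2 at Trim28 the taller held 14.1 normalized tags.

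Promoter windows touched by a peak had a median of 18 CpG, over 4293 windows, against 6 over the 28558 windows without one. The Peg3 and Usp29 windows, with 13 and 17 CpG under the broad peak, lay below the median of windows with a peak, and the Zim1 window, with 20 CpG and no peak, lay above it.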
